A study of Mus musculus with 4 samples.

Results

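The 10 genes described here encode the subunits of the transcription factor NF-kappaB (Nfkb1, Rel, Rela, Nfkb2 and Relb), its inhibitors (Nfkbia, Nfkbib, Nfkbie and Nfkbiz) and the ubiquitin-editing brake Tnfaip3. They were taken by symbol from the 55385 genes of an RNA sequencing table, and all 10 were abundant enough to be tested, which required 10 or more normalized counts as the mean of the 4 libraries. The libraries came from 4TO7 cells, a mouse mammary carcinoma line, recovered by enzymatic digestion of tumors from Balb/c hosts. Of the libraries, 2 came from tumors that were resistant to immunotherapy with an antibody against PD-L1, the ligand that restrains T cells through PD-1, and 2 came from control tumors. The treatment label of all 4 samples reads untreated, while the treatment protocol of all 4 names anti-PD-L1 in vivo, so what the control tumors received is not settled by the labels. The sources used here give no age for the mice. The series calls the 2 samples of a group biological replicates without saying whether they came from separate mice, so p-values measure the spread between these libraries, and both groups derive from a single cell line.

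NF-kappaB is a family of dimers that wait in the cytoplasm until a signal releases them. In the canonical arm, receptors for tumor necrosis factor, interleukin-1 and microbial products activate the IKK kinases, which mark inhibitor proteins for destruction and free dimers of p50 (from Nfkb1) with RelA or c-Rel. In the non-canonical arm, receptors such as the lymphotoxin beta receptor and Fn14 stabilise the kinase NIK, which drives processing of p100 (from Nfkb2) to p52, the partner of RelB. The factor switches on genes of its own inhibitors, which closes a feedback loop, and in carcinoma cells it drives chemokines, adhesion molecules and survival genes.

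The libraries held 45666470 to 46999812 counted reads in resistant cells and 46179416 to 49592054 in control cells, and the members were covered by 217 to 9455 reads per library. Carcinoma keratins were abundant, whereas leukocyte markers were near 0. Of 15 leukocyte markers, 14 stayed below the filter, Cd8a, S100a9, Nkg7 and Klrb1c had no read, and Ptprc, the gene of CD45, had at most 2 reads in any library. The exception was S100a8, at 394 and 393 normalized counts in resistant cells against 800.2 and 421 in control cells, and without it the leukocyte markers summed to 20.4 and 25.7 in resistant and 15.4 and 16.1 in control cells. The 7 epithelial markers summed to 47530 and 55237 normalized counts in resistant and 66531 and 43052 in control cells, with Krt14 and Krt5 at 0. The 8 fibroblast markers, mostly Pdgfra, summed to 7148 and 8502 against 9305 and 6427, and the 6 endothelial markers to 171 and 233 against 80.7 and 48.4, where Vwf rose (2.45 ± 0.38, adjusted p = 0.00895). These sums rest on a few abundant genes, and single markers differed beneath them. Krt19 rose, at 298 and 425 normalized counts in resistant against 48.0 and 41.4 in control cells (log2 fold change 2.97 ± 0.25, adjusted p = 0.000812). Epcam fell, at 87.6 and 114 in resistant against 341 and 246 in control cells (-1.53 ± 0.25, adjusted p = 0.011), and so did the fibroblast marker Dcn, at 163 and 143 against 763 and 483 (-1.99 ± 0.24, adjusted p = 0.00343). The part of these marker differences in the results was not tested. In bulk RNA, fewer cells of a type and less RNA per cell cannot be told apart.

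Of the 10 members, 5 fell in resistant cells. They were the inhibitor gene Nfkbia, the atypical inhibitor gene Nfkbiz and the subunit genes Relb, Nfkb1 and Rela, with log2 fold changes (resistant minus control) between -1.13 and -0.48. None rose, by this limma test, by limma voom on the reads recovered from the deposited values (0) or at an unadjusted p under 0.05 (0). In the same limma test 4.73% of all 14238 tested genes fell and 5.32% rose at an adjusted p under 0.05. The median log2 fold change of the 10 members was -0.43, beside 0.00 over all tested genes. In 6 members both resistant libraries lay below both control libraries, a pattern found in 28.3% of tested genes. The other 5 members did not pass, and the precision behind them differed, with 95% intervals of -0.63 to -0.16 for Nfkb2 and of -1.02 to 0.60 for Rel.

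**Figure D1:**
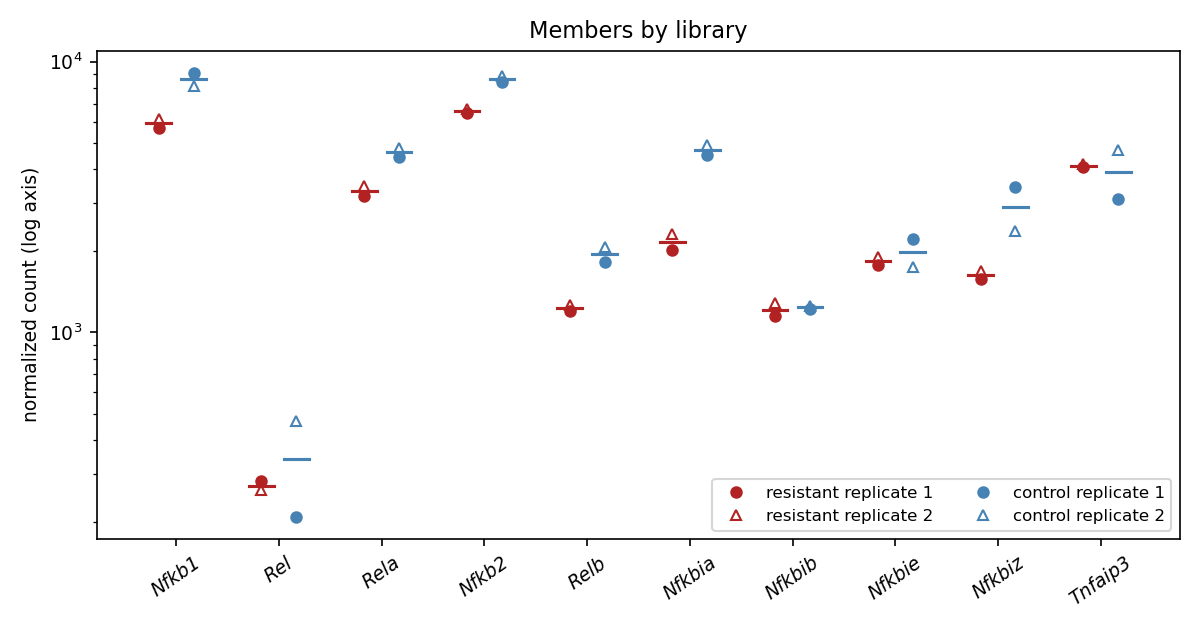
Normalized counts of the 10 members on a log axis, with 1 point per library (resistant left of control) and a bar at the mean of each group. The resistant points lie below the control points for Nfkb1, Rela, Nfkb2, Relb, Nfkbia and Nfkbiz, and the control points of Rel and Tnfaip3 lie on either side of the resistant points.

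Among the canonical subunits, Nfkb1, which encodes p105 and its product p50, had 5709.9 and 6129.9 normalized counts in resistant cells against 9083 and 8133 in control cells. Both resistant libraries were lower, and the log2 fold change was -0.54 ± 0.11 (SE, adjusted p = 0.0246). Rela, which encodes the main transactivating subunit, had 3175 and 3464 normalized counts in resistant cells against 4439 and 4797 in control cells. It fell by 0.48 ± 0.11 on the log2 scale (adjusted p = 0.0354), again with no overlap of the groups. Rel, which encodes c-Rel, the subunit most used by lymphocytes, was the least abundant member. It had 281 and 261 normalized counts in resistant cells against 208 and 472 in control cells. The control libraries thus lay on both sides of the resistant ones. The log2 fold change of Rel was -0.21 with a 95% interval of -1.02 to 0.60 (adjusted p = 0.746), so neither a fall nor a rise can be read from it. Without control replicate 1 its value was -0.80 (adjusted p = 0.000962), and without control replicate 2 it was 0.38 (adjusted p = 0.203).

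Among the non-canonical subunits, Relb, which encodes the partner of p52, had 1198 and 1264 normalized counts in resistant cells against 1813 and 2066 in control cells. The groups did not overlap, and Relb fell by 0.65 ± 0.12 on the log2 scale (adjusted p = 0.0198). Nfkb2, which encodes p100 and is itself an inhibitor until it is processed, had 6448 and 6674 normalized counts in resistant cells against 8377 and 8845 in control cells. Its groups did not overlap either, and its value of -0.39 ± 0.10 (95% interval -0.63 to -0.16) missed the threshold narrowly at an adjusted p of 0.0515. With TMM scaling the adjusted p of Nfkb2 was 0.048, and with a pseudocount of 5 it was 0.0497, so its call changes with small changes of the settings. It was not called with limma voom (0.0571), without a filter on low values (0.13) or without a mean-variance trend (0.149). The replicate block described below did not call it either (0.172), whereas the crossed replicate block did (0.000353). Where counting ignores strand, which the sources used here do not settle, reads of Nfkb2 cannot be told apart from those of Psd on the opposite strand over 299 bases of its exons. Psd had 1680 reads over the 4 libraries, against 30039 for Nfkb2. The promoter RNA AC114539.1 overlaps Nfkb2 in the same way over 531 bases and had 408 reads.

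The classical inhibitors hold dimers in the cytoplasm. Nfkbia, which encodes IkappaB-alpha, the inhibitor that is destroyed and made again fastest, had 2013 and 2313 normalized counts in resistant cells against 4526 and 4908 in control cells. Its mean was 2163 ± 212 in resistant and 4717 ± 270.2 in control cells (SD, n = 2 each), a log2 fold change of -1.13 ± 0.12 (adjusted p = 0.00173) and a 2.18-fold fall. This was the largest change among the members, and 3.48% of all tested genes had a lower log2 fold change. Nfkbib, which encodes IkappaB-beta, had 1144 and 1282 normalized counts in resistant cells against 1217 and 1254 in control cells. The resistant libraries enclosed the control ones, and Sirt2, on the opposite strand over 42 bases of its exons, had 21639 reads over the 4 libraries against 4828 for Nfkbib. The log2 fold change of Nfkbib was -0.03 (95% interval -0.32 to 0.26, adjusted p = 0.912). Nfkbie, which encodes IkappaB-epsilon, had 1773 and 1893 normalized counts in resistant cells against 2216 and 1738 in control cells. Its groups overlapped too, at -0.10 (95% interval -0.43 to 0.24, adjusted p = 0.711). The interval of Nfkbia, -1.40 to -0.85, lies below the intervals of both other classical inhibitors; no test of the difference between genes was made.

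Nfkbiz encodes IkappaB-zeta, a nuclear protein that helps p50 to switch on secondary genes such as Lcn2. It had 1579.6 and 1684 normalized counts in resistant cells against 3435 and 2373 in control cells. Both resistant libraries lay below both control libraries, and Nfkbiz fell by 0.81 ± 0.18 on the log2 scale (adjusted p = 0.0305). Its control libraries differed by a factor of 1.45, so the size of the fall depends on which is used: leaving out control replicate 1 gave -0.54, and leaving out control replicate 2 gave -1.07. Tnfaip3 encodes A20, which trims the ubiquitin chains that activate IKK. It had 4072 and 4169 normalized counts in resistant cells against 3121 and 4711 in control cells. As for Rel, control replicate 1 lay below the resistant libraries and control replicate 2 above them. The log2 fold change of Tnfaip3 was 0.10 (95% interval -0.32 to 0.53, adjusted p = 0.764), and it was called higher without control replicate 2 (0.40, adjusted p = 0.00887) but not without control replicate 1 (-0.19, adjusted p = 0.287). Beside these values, the fibroblast collagen gene Col1a2 had 0.961 normalized counts in control replicate 1 and 76.7 in control replicate 2. Col1a1 (12.5 and 69.6) and Col3a1 (0 and 13.1) went the same way. The other fibroblast markers, Pdgfra (8504 and 5766), Dcn (763 and 483), Pdpn, Lum and Fap, were higher in control replicate 1. A link of these markers to the members was not tested.

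**Figure D2:**
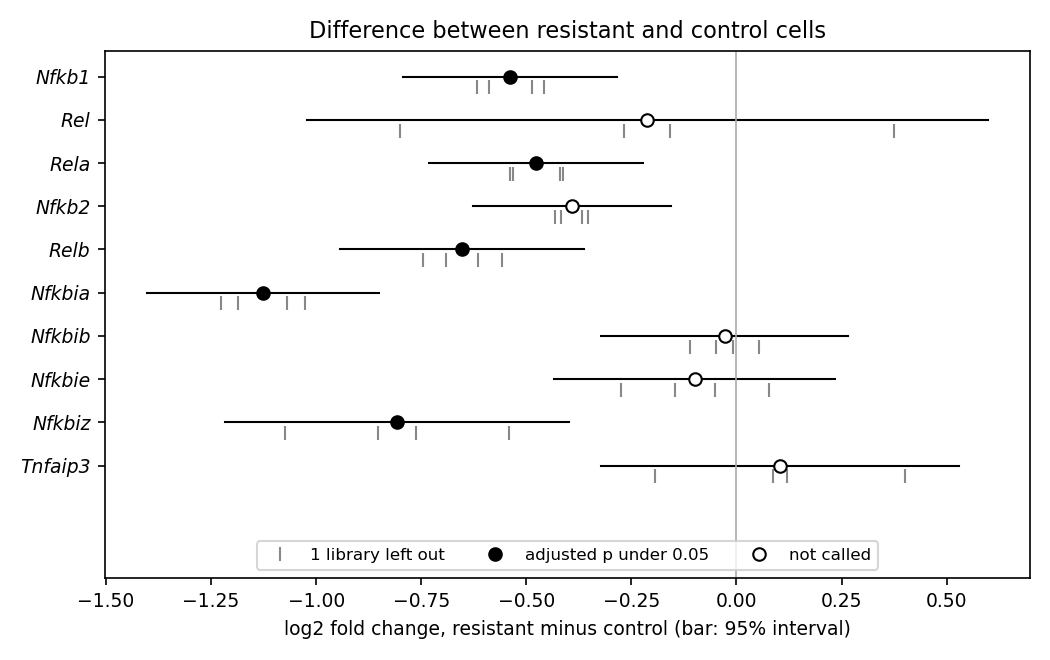
Log2 fold change (resistant minus control) of each member with its 95% interval; filled points passed an adjusted p of 0.05, and grey ticks give the value with each library left out in turn. Nfkbia lies farthest to the left at -1.13, and the ticks of Rel and Tnfaip3 fall on both sides of 0.

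Most of these calls ended when a resistant library was left out. When resistant replicate 1 was left out 1 member fell, and when resistant replicate 2 was left out 1 member fell, namely Nfkbia in both cases (adjusted p = 0.0105 and 0.00355). In these fits, where the spread comes from the control pair alone, 1.64% and 1.88% of all tested genes fell. Without control replicate 1, 7 members fell, beside 9.83% of all tested genes. Without control replicate 2, 6 fell and 1 rose, beside 14% and 14.6% of all tested genes. The values themselves moved less: Nfkb1 stayed between -0.62 and -0.46, Rela between -0.54 and -0.41 and Relb between -0.75 and -0.56 with any 1 library left out.

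The neighbours of the members on their chromosomes were set beside them. The other 206 tested genes within a 10 Mb window around Rela (chromosome 19, 5637483 to 5648130, GRCm38) had a median log2 fold change of -0.26, and the 99 around Nfkb2 (chromosome 19, 46304320 to 46312385) had a median of -0.22. Rela and Nfkb2 are thus set against neighbours that were themselves lower. Around Nfkbia (ENSMUSG00000021025.8, chromosome 12, 55489410 to 55492647) the 38 neighbours had a median of -0.03. Around Nfkb1 (chromosome 3, 135584655 to 135691547), Relb (chromosome 7, 19606217 to 19629438) and Nfkbiz (chromosome 16, 55811375 to 55838899) the medians were -0.07, -0.06 and -0.05.

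To compare levels between genes, normalized counts were divided by summed exon length and scaled to the same total in every library, which gives TPM. In TPM Nfkbia was the most abundant member in control cells, whereas Nfkb2 and Nfkbia stood close together at the top in resistant cells. Nfkb2 stood at 112 ± 1.85 TPM in resistant and 152 ± 10.6 in control cells, and Nfkbia at 105 ± 9.45 in resistant and 237 ± 21.0 in control cells (SD, n = 2 each). Across the resistant libraries the values of these 2 genes overlapped, but within each library Nfkb2 was higher (110.3 against 98.0 and 112.9 against 111.4). In control cells their values did not overlap. Rela followed in both groups, at 84.2 ± 4.53 in resistant and 122 ± 10.5 in control cells. In control cells the next 6 genes, Nfkb1 (57.7), Nfkbie (52.4), Nfkbiz (46.7), Nfkbib (46.1), Tnfaip3 (44.1) and Relb (40.5), each overlapped its neighbour in this order. In resistant cells Nfkbie (46.9), Tnfaip3 (44.5) and Nfkbib (43.6) came before Nfkb1 (38.3), Nfkbiz (25.4) and Relb (24.7), and Nfkb1 was clear of the genes on either side. Rel was last in both groups, at 2.83 ± 0.174 in resistant and 3.72 ± 2.14 in control cells. Exon lengths include every annotated isoform, so levels of genes with long rare isoforms are understated.

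The subunits together stood at 256 and 268 TPM in resistant cells against 358 and 394 in control cells. Their make-up was similar: Nfkb2 took 43.1% and 42.2% of the subunit total in resistant against 40.4% and 40.5% in control cells, and Rela took 31.7% and 32.7% against 32.0% and 32.8%. The classical inhibitors together stood at 185 and 205 TPM in resistant cells against 325 and 347 in control cells. Here the make-up differed more. Nfkbia took 53.0% and 54.2% of this total in resistant cells against 68.6% and 72.6% in control cells. Nfkbib took 22.4% and 22.3% in resistant against 13.7% and 13.8% in control cells. Its own level was 43.6 ± 3.15 TPM in resistant and 46.1 ± 2.41 in control cells (SD), so its larger share restates the fall of Nfkbia in the total. Inhibitor transcripts per subunit transcript were 0.724 and 0.767 in resistant cells and 0.907 and 0.882 in control cells, and these groups did not overlap. These sums are descriptions of chosen genes, hold the fall of Nfkbia already given and carry no test.

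**Figure D3:**
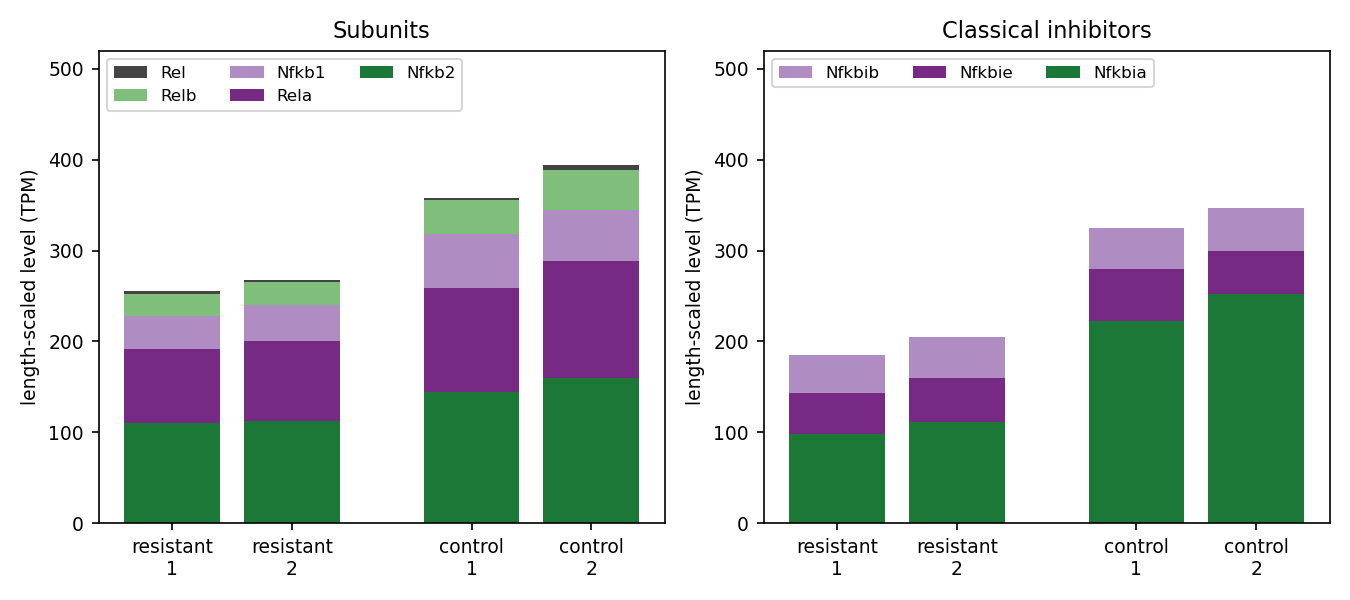
Length-scaled levels (TPM) of the 5 subunit genes, left, and the 3 classical inhibitor genes, right, stacked for each library with resistant libraries left of control. Both stacks are shorter in the resistant libraries, and the Nfkbia segment takes 53.0% and 54.2% of the inhibitor stack there against 68.6% and 72.6% in control.

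The series' groups were also compared for the balance of the arms. The mean log2 value of the canonical subunits Nfkb1, Rel and Rela was 10.75 and 10.79 in resistant against 10.99 and 11.37 in control cells. The mean of the non-canonical subunits Nfkb2 and Relb was 11.44 and 11.50 in resistant against 11.93 and 12.06 in control cells. Both arms were thus lower, by 0.41 and 0.52 on the log2 scale. The non-canonical minus the canonical mean was 0.69 and 0.71 in resistant and 0.94 and 0.69 in control cells, so 1 resistant library lay inside the control range and the other just below it. Their difference of -0.11 was smaller than the pooled SD of 0.12, and its size depended on the control library used: leaving out replicate 1 of the control pair gave 0.0079, and leaving out replicate 2 gave -0.23. With Rel left out of the canonical arm it was -0.01. With 2 libraries a group an exact two-sided permutation test cannot go below p = 0.333, so none is given.

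Single ratios between the arms went opposite ways at the group means. The log2 ratio of Nfkb2 to Nfkb1 was 0.18 and 0.12 in resistant and -0.12 and 0.12 in control cells, so both resistant values lay above both control values, but replicate 2 of both groups had about the same ratio. The log2 ratio of Relb to Rela was -1.41 and -1.46 in resistant and -1.29 and -1.22 in control cells, and these groups did not overlap. The ratio of Nfkbia to Rela was not among the planned ones and does not compare the arms. It had the largest shift, at -0.66 and -0.58 in resistant against 0.03 and 0.03 in control cells. Its numerator is the member with the largest fall, so the shift restates the fold changes of both genes. This ratio separated the groups by far more than the libraries of a group differed.

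**Figure D4:**
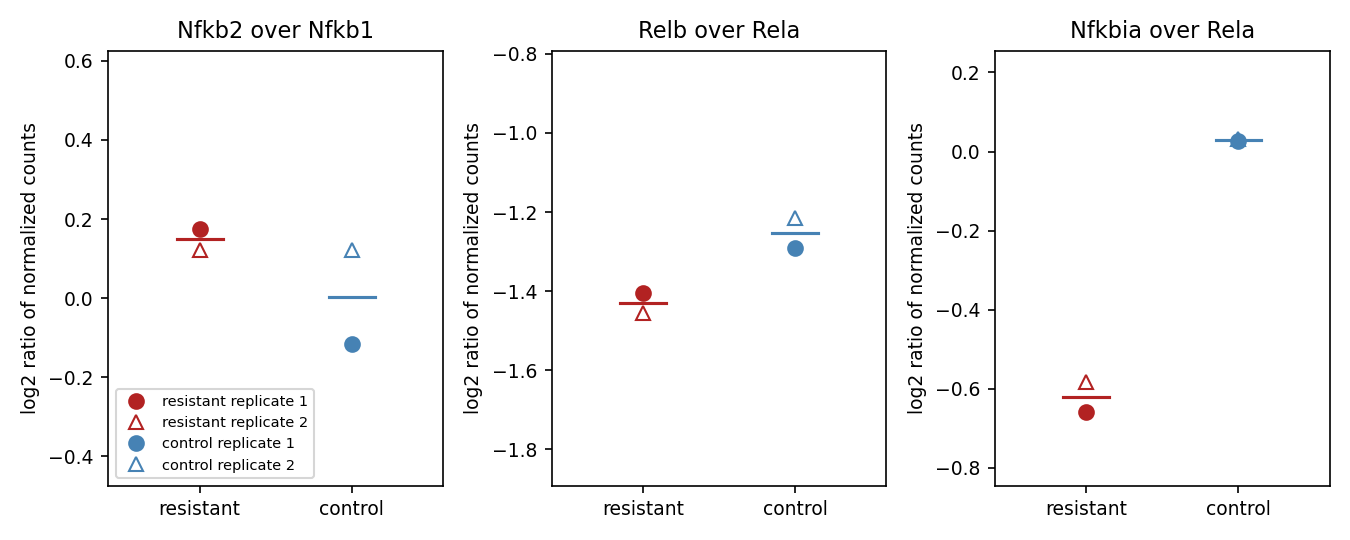
Log2 ratios of normalized counts within each library for Nfkb2 over Nfkb1, Relb over Rela and Nfkbia over Rela, on axes of equal span, with resistant left of control and a bar at each group mean. For the first ratio replicate 2 of both groups stands at 0.12, so the groups almost touch, and for the other two the group means are 0.18 and 0.65 apart.

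Because NF-kappaB acts on the promoters of its own subunits and inhibitors, the promoters were read for its binding sequence. Promoter windows of 300 bases (250 before and 50 after the transcript start) came from RefSeq on GRCm38.p6, the reference of another strain than Balb/c, and 7 of the 10 members matched the table. The kappaB consensus was searched on both strands, with overlapping matches counted, and it was found in at least 1 window of 5 of these 7 genes. Of all 27025 genes in the table, 9.55% held it in at least 1 window. A gene with several windows, such as Nfkb2 or Tnfaip3, has more chances of a match. Nfkbia, the member with the largest fall, has its match GGAAATTCCC starting 29 bases before the start. Nfkb2, which missed the threshold, has 3 matches in its first window, of which GGGAATTCCC and GGAATTCCCC overlap. Tnfaip3, which did not pass, has GGGACACCCC and GGAAATCCCC, and Rela, which fell, has none in this window. These 4 windows are printed because they cover a member that fell with a match, a member that fell without one and 2 members with matches that were not called. Capitals mark the kappaB matches, and each sequence runs 5′ to 3′ on the gene's own strand (chr12:55492598-55492897 on the minus strand for Nfkbia, chr19:46304487-46304786 on the plus strand for Nfkb2, chr10:19015361-19015660 on the minus strand for Tnfaip3 and chr19:5637291-5637590 on the plus strand for Rela).
Nfkbia: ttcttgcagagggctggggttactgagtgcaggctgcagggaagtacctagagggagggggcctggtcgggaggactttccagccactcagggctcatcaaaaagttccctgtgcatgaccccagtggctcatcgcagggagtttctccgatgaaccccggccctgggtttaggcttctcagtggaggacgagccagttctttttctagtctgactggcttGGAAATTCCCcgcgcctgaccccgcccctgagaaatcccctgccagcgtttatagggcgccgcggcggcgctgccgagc
Nfkb2: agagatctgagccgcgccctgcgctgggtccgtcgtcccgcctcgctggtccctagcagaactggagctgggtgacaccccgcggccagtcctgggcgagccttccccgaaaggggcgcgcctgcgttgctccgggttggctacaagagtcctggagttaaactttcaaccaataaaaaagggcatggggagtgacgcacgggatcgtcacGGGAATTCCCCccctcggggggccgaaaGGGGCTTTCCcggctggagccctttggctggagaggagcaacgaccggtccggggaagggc
Tnfaip3: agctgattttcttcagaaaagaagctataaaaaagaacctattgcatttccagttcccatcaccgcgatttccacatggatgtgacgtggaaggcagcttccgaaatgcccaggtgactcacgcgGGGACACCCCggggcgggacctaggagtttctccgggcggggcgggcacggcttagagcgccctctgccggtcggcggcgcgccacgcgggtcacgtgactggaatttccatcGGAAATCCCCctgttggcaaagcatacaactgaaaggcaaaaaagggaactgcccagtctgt
Rela: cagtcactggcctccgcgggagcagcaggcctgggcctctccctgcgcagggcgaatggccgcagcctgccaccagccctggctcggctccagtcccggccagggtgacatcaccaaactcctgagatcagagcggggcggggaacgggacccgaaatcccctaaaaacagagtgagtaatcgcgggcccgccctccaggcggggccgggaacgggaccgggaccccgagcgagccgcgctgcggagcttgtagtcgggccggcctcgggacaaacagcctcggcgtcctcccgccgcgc

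Of the other members with a window, Rel has GGGAAATCCC and GGAAATCCCC, which overlap, and Nfkbie has GGGGGATTCC, while Nfkbib has none. Of the windows not printed, those of Nfkb2 hold GGAATGTCCC and GGGACTTTCC, and that of Tnfaip3 holds none. A match describes letters and not binding, and the missing match in Rela and Nfkbib says only that these letters are not in their windows.

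Most other genes of the pathway did not pass the test. Of 109 other pathway genes in 5 lists, 94 were tested, of which 12 fell and 5 rose. These calls cover 18.1% of the tested pathway genes, beside 10.1% of all tested genes. Of all tested genes 4.73% fell and 5.32% rose, and these shares also stand beside each list below. The share of pathway genes that rose was close to that of all genes, and the share that fell was larger. This larger share rests on the target genes, which gave 8 of the 12 falls. The canonical kinases and adaptors, the non-canonical arm, the receptors and ligands, and the other regulators gave 1, 1, 2 and 0. In these lists 23, 10, 13 and 17 genes were tested. No set test was made. Of 23 kinases, adaptors and ubiquitin ligases of the canonical arm, 21 did not pass. Rnf31, which encodes HOIP, the ligase that makes linear ubiquitin chains, had 2642 and 2702 normalized counts in resistant against 3683 and 4811 in control cells and fell by 0.66 ± 0.14 on the log2 scale (adjusted p = 0.0302). Irak2, a gene of interleukin-1 and Toll-like receptor signalling, rose by 0.53 ± 0.12 (adjusted p = 0.0345). It had 3197 and 3575 normalized counts in resistant against 2486 and 2206 in control cells. The IKK kinase and scaffold genes Ikbkb (0.11, 95% interval -0.17 to 0.39) and Ikbkg (0.08, -0.19 to 0.36) did not pass. The median of this list was -0.03.

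Of 15 genes of the non-canonical arm, 10 were tested, 1 rose and 1 fell. Tnfrsf12a, which encodes the TWEAK receptor Fn14, had 18993 and 16361 normalized counts in resistant against 11050.2 and 12908 in control cells and rose by 0.56 ± 0.13 (adjusted p = 0.0354). The gene of its ligand, Tnfsf12, had at most 2.15 normalized counts in any library. Birc3, which encodes the ligase cIAP2 that keeps NIK low and is itself an NF-kappaB target, had 542 and 597 in resistant against 838 and 846 in control cells and fell by 0.56 ± 0.14 (adjusted p = 0.0444). NIK's gene Map3k14 (-0.05, 95% interval -0.35 to 0.25), its brake Traf3 (0.08, -0.23 to 0.39), the kinase gene Chuk (-0.18, -0.50 to 0.14) and the lymphotoxin receptor gene Ltbr (-0.09, -0.33 to 0.16) did not pass. The median of the list was -0.05.

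Of 17 canonical receptors and ligands, 13 were tested, 2 fell and none rose in limma or limma voom (0), with 1 higher at an unadjusted p under 0.05. Tlr3, the receptor for double-stranded RNA, had 436 and 459 normalized counts in resistant against 1596 and 1210.3 in control cells and fell by 1.63 ± 0.17 (adjusted p = 0.00154). Il1rap, the shared chain of the interleukin-1 receptor, had 3127 and 3111 in resistant against 4629 and 4287 in control cells and fell by 0.51 ± 0.10 (adjusted p = 0.0245). The receptor gene Tnfrsf1a did not pass (-0.04, 95% interval -0.33 to 0.24). The ligand genes Tnf and Il1a were low: Tnf had 27.5 and 33.3 normalized counts in resistant against 37.5 and 54.5 in control cells, missing the threshold, and Il1a had 3 reads in each resistant library and none in either control library. Of 18 other inhibitors and regulators, 17 were tested and none was called by limma or limma voom (0), with 2 higher and 4 lower at an unadjusted p under 0.05. Bcl3, an atypical inhibitor that binds p50 and p52, had 919 and 1096 normalized counts in resistant against 1733 and 1145 in control cells, and its difference missed the threshold (-0.49, 95% interval -0.97 to -0.01, adjusted p = 0.181). The deubiquitinase gene Cyld (-0.09, -0.36 to 0.17) and the A20 partner gene Tnip1 (0.02, -0.28 to 0.33) did not pass either.

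Target genes of the pathway were called in both directions, mostly lower. Of 36 listed, 31 were tested, 8 fell and 3 rose. These calls cover 35.5% of the tested target genes, beside 10.1% of all tested genes. Among all tested genes 4.73% fell and 5.32% rose, so falls did not outnumber rises there. Of the 8 target genes that fell, the chemokine genes Cxcl1, Cxcl2, Cxcl3 and Cxcl5 lie in 1 stretch of chromosome 5 (90759360 to 90905938). These falls come from 1 locus, and the share counts each of them. The list had a median log2 fold change of -0.26. The neutrophil chemokine gene Cxcl1 had 393 and 389 normalized counts in resistant against 1072 and 1212 in control cells (-1.54 ± 0.14, adjusted p = 0.00107). The adhesion molecule gene Icam1 had 97.8 and 141 in resistant against 326 and 329.8 in control cells (-1.47 ± 0.23, adjusted p = 0.00918). The largest fall of the list was that of the immediate early gene Egr1, which also answers to growth factor signals, at 124 and 147 in resistant against 1067 and 606 in control cells (-2.56 ± 0.27, adjusted p = 0.00185). The urokinase gene Plau had 8885 and 9236 normalized counts in resistant against 4571 and 5659 in control cells and rose by 0.83 ± 0.13 (adjusted p = 0.00872). The other 2 that rose, named here because they are so few, were the mitochondrial superoxide dismutase gene Sod2 (0.54 ± 0.11, adjusted p = 0.0287) and the gelatinase gene Mmp9 (0.71 ± 0.16, adjusted p = 0.0353). The target gene of Nfkbiz named above, Lcn2, did not pass (-0.26, adjusted p = 0.578). Over all 5 lists, fewer genes passed without resistant replicate 1 and also without resistant replicate 2. The same was so for all tested genes, so this loss was not particular to the lists. Of the called genes named here, Tlr3, Cxcl1 and Egr1 kept their calls in both of these fits, Icam1 lost its call without resistant replicate 1 and Plau lost its call without resistant replicate 2, and the calls of Rnf31, Irak2, Tnfrsf12a, Birc3, Il1rap, Sod2 and Mmp9 ended in both.

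**Figure D5:**
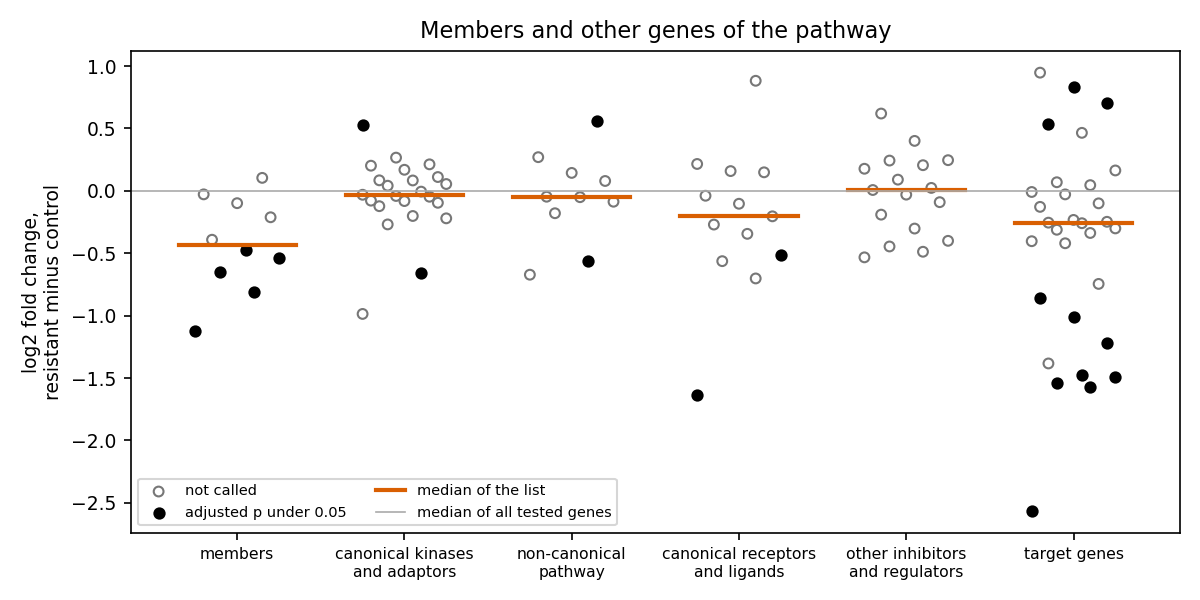
Log2 fold changes (resistant minus control) of the members and of the tested genes of 5 other pathway lists; filled points passed an adjusted p of 0.05, orange bars are list medians and the grey line is the median of all tested genes. The members' median lies at -0.43, those of the other lists between -0.26 and 0.01.

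The genes whose 4 values were most like those of Nfkbia, the member with the smallest p, were found by the Euclidean distance between log2 values centred on each gene's own mean. The nearest was Irf9, the DNA-binding part of the interferon-activated complex ISGF3, at a distance of 0.0515 over the 4 libraries. It had 2296 and 2716 normalized counts in resistant against 5428 and 5729 in control cells. The next were Cep295nl (0.0958), the RNA-editing enzyme gene Adar (0.0972), Rab32 (0.117) and Fbxo39 (0.123), of which Cep295nl and Fbxo39 had fewer than 60 normalized counts in every library. With 4 libraries many genes share such a profile, and likeness here is a description.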

How the data were processed

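RNA was sequenced in bulk from 2 resistant and 2 control tumor cell samples, grouped by their source labels. For the log2 values the authors deposited, the submitters' processing notes name STAR, DESeq2 and build mm10, without version or setting. Each value is the log2 of a size-factor-scaled count plus 1. Undoing this put 100% of the values of every library on multiples of a single step (tolerance 0.01 reads), which gave back the reads. Symbols were found for 55144 of 55385 genes after removing identifier versions; coordinates and exon lengths are from GENCODE M21.

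The 14238 genes with 10 or more normalized counts on average were fitted on the deposited log2 values with limma 3.58.1 in R 4.3.3 (trend, no block), two-sided, with Benjamini-Hochberg adjustment over all of them at 0.05. The pseudocount of 1 understates changes of low genes. 15 alternatives were tried (other pseudocounts, filters, scalings and moderation, limma voom on the recovered reads, a replicate block and leaving out each library), 1 of them added after seeing the data.

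The members and lists were chosen with earlier results of these data known. Named genes are all members, up to 4 called genes with the smallest p per pathway list, 13 fixed kinase, brake, ligand and receptor genes, and the 5 nearest profiles; predicted genes were left out of the last. Lcn2, Psd, Col1a2, Col1a1, Col3a1, Pdgfra, Pdpn, Lum, Fap, Vwf, Pecam1, Tnfsf12, AC114539.1, Sirt2, Krt19, Epcam, Dcn, Cxcl5, Sod2 and Mmp9 were named after their values were seen. Nothing in the labels says that equal replicate numbers pair the samples.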

Additional observations from a re-analysis of the deposited data

How the results depend on the processing

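All 10 members kept their sign under the 11 alternatives that kept every library. Of these, the other filters, the other moderations and the replicate blocks leave the fold change of a gene unchanged. A sign could only move under other pseudocounts, other scalings or limma voom. Without a filter on low values, and also without a mean-variance trend, 1 member fell (Nfkbia in both); genes overall were then 126 and 266 higher and 185 and 357 lower, and other pathway genes 1 and 0 higher and 3 and 5 lower. Leaving out 1 library at a time gave 1 to 7 members lower and 0 to 1 higher, 146 to 2074 genes higher and 234 to 1993 lower, and 0 to 14 other pathway genes higher and 5 to 29 lower. Signs changed only in such fits, for genes not called with all 4 libraries: Rel (-0.80 to 0.38), Nfkbib (-0.11 to 0.053), Nfkbie (-0.27 to 0.076), Tnfaip3 (-0.19 to 0.40), Cyld (-0.20 to 0.015), Ikbkg (-0.012 to 0.18), Map3k14 (-0.16 to 0.056), Tnfrsf1a (-0.16 to 0.078), Tnip1 (-0.091 to 0.14) and Traf3 (-0.094 to 0.25). The replicate block, whose numbers only name samples, gave 628 genes higher and 585 lower and 4 members lower, with Rela lost (adjusted p = 0.0805); it also ended the calls of Birc3 (0.128), Il1rap (0.056), Irak2 (0.0581) and Sod2 (0.0686). Deviations of same-numbered libraries correlated at r = -0.36 across genes, and a crossed replicate block, added after seeing the data, gave 2402 genes higher and 2182 lower, 6 members lower, and 11 other pathway genes higher and 30 lower. The cause of these differences was not tested. With TMM and upper quartile scaling, the median log2 fold change of all genes moved by -0.0043 and -0.012. Limma voom on the recovered reads gave 742 genes higher and 642 lower. With 2 libraries a group, differences as small as that of Nfkb2 lie at the limit of what passes.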

Other observations

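Of the 8 target genes that fell, 6 had a promoter window in the RefSeq table, and 4 of these 6 (Cxcl1, Cxcl2, Cxcl3 and Cxcl10) held the kappaB consensus. Of the 20 target genes that did not pass, 15 had a window and 5 held it, and of the 3 that rose, 1 had a window and it held the consensus (Sod2). These counts are too few to compare and no test was made. Cxcl2, Cxcl3 and Cxcl10 were named after their values were seen.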
